A study of Mus musculus with 2 samples.

Results

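The respiratory chain genes described here are the 110 genes whose symbols name a subunit, or an assembly factor with the same symbol stem, of complexes I to IV or of the ATP synthase, out of 31053 genes counted. They were chosen by symbol alone (Nduf, Uqcr, Cox4 to Cox8, Atp5, Sdha to Sdhd, mt-Nd, mt-Co, mt-Atp and mt-Cytb, without pseudogene symbols). Of them 97 are encoded in the nucleus and 13 in the mitochondrial genome. All 110 were matched by identifier to the GENCODE annotation of the mouse genome GRCm38. The nuclear members are 38 complex I subunits, 8 complex I assembly factors, 4 complex II subunits, 4 complex II assembly factors, 8 complex III members, 18 complex IV members and 17 ATP synthase members by symbol. The symbol Atp5o stands for 2 of these, and 1 of the pair had 3 UMIs in all. Of the 97, 94 had at least 20 UMIs (unique molecular identifiers, each standing for 1 captured transcript molecule) in both libraries together, and 90 had at least 200. The testis form Cox7b2 and the paralogue Cox8c had 0 UMIs in both libraries.

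The data are 2 droplet single-cell libraries of epithelial cells from the mouse colon, 1 library per group. The GFP library came from mice with the genotype c-Kit-creERT2;Rosa26-mTG, in which tamoxifen lets a recombinase under the control of the Kit gene switch a reporter to GFP in cells that express Kit, and their descendants keep the mark. Tamoxifen was given to these mice once, into the peritoneum, at 1 mg per 20 g, and GFP-positive cells were sorted. The whole epithelium library came from mice with the genotype c-Kit-creERT2 and no treatment, so both groups carry the recombinase allele, but the reporter allele, tamoxifen and sorting belong to the GFP library alone. The age of the mice, how many were used for each library and the time after tamoxifen are not given in the sources used here. The study set the descendants of Kit-expressing cells beside the epithelium at large.

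The respiratory chain passes electrons from NADH (complex I) and succinate (complex II) through complex III to oxygen at complex IV, cytochrome c oxidase. The proton gradient built by complexes I, III and IV drives the ATP synthase. Complex II is encoded wholly in the nucleus, and the other 4 take core subunits from the mitochondrial genome. In the colon, absorptive colonocytes oxidise butyrate made by bacteria as a main fuel, while stem and transit-amplifying (TA) cells at the crypt base divide, goblet cells secrete mucus and enteroendocrine cells secrete hormones.

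The records of the 2 count matrices are crossed, and each matrix was given to the library whose barcode list has its size, so every direction between the libraries would turn under the reverse assignment. Levels of nuclear genes are in CPM, counts per 1000000 UMIs of nuclear genes. Gt(ROSA)26Sor, transcribed where the reporter was inserted, was at 1.26 CPM in the GFP library and 36.98 CPM in the whole epithelium library. Xist, which is made in female cells, was at 827.8 CPM in the GFP library and 0.0715 CPM in the whole epithelium library, so sex differed between the libraries as well. The GFP library held 150348319 UMIs in 13575 barcodes, of which 5767 (42.48%) were kept, and the whole epithelium library held 164185392 UMIs in 13967 barcodes, of which 7762 (55.57%) were kept. Barcodes were kept with 500 genes and 1000 UMIs or more and mitochondrial UMIs of 25% or less. Kept cells had a median of 15821 UMIs in the GFP library and 14160 UMIs in the whole epithelium library, and 19 barcodes were kept in both. The epithelial marker Epcam was at 2126.8 CPM in the GFP library and 1962.3 CPM in the whole epithelium library. A list of 15 T and NK cell markers summed to 9.704 CPM in the GFP library and 203.1 CPM in the whole epithelium library, with no marker at 0 in either. The 3 red cell markers summed to 0.295 CPM in the GFP library and 85.09 CPM in the whole epithelium library, and 11 dissociation stress genes summed to 5177.6 CPM and 9506.1 CPM in the same order, all 11 lower in the GFP library. The part of these lists in the differences between the libraries was not tested. Each group is 1 library, so no value has a replicate check and no test was made. Bracketed ranges are exact 95% intervals that cover counting error only, and whether a difference exceeds the spread between mice could not be asked.

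Promoters of 6 nuclear members are shown, because these members, or the isoforms they pair with, carry contrasts between cell classes described further on. Sequences are RefSeq promoters of build GRCm38.p6, 250 bases before to 50 after the gene start, 5′ to 3′ on the strand of the gene. Capitals mark the core of the NRF1 motif (GCGCATGC), the ETS core (CCGGAA), an E-box (CAGCTG) and a TATA box (TATAAA), each searched on both strands. NRF1 and the ETS factor GABP are the classic regulators of nuclear respiratory chain genes. Cox7a1 (chr7:30183921-30184220, plus strand), the muscle and heart form of cytochrome oxidase subunit 7A, held none of the 4 motifs, and its broadly expressed paralogue Cox7a2 (chr9:79759804-79760103, minus strand) held 1 ETS core.
Cox7a1: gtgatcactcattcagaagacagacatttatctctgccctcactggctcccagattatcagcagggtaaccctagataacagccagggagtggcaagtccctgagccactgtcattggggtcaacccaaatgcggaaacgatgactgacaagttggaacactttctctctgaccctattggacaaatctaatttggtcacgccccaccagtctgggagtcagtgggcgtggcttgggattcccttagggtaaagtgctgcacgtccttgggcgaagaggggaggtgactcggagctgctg
Cox7a2: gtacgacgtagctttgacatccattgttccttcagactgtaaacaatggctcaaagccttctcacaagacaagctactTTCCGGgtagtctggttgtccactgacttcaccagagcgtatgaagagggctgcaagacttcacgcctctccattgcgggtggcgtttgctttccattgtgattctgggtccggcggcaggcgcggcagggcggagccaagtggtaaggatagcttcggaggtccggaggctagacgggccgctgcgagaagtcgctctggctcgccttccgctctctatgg
Cox8b (chr7:140900397-140900696, minus strand), the muscle form of subunit 8, held a TATA box and 2 E-boxes, and its broadly expressed paralogue Cox8a (chr19:7217567-7217866, minus strand) held 3 ETS cores.
Cox8b: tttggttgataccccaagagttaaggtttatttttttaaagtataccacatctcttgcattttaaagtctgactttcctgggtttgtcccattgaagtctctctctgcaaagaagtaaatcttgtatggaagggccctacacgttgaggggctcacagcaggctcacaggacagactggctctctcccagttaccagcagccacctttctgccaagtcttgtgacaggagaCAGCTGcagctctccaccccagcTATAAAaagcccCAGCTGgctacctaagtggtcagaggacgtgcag
Cox8a: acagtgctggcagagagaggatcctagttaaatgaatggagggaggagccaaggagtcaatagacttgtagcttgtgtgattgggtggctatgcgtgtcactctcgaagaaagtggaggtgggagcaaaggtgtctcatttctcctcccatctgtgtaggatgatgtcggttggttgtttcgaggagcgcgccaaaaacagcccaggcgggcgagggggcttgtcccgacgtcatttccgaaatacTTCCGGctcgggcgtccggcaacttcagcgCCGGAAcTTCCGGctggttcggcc
Ndufaf4 (chr4:24897833-24898132, plus strand), an assembly factor of complex I, held 3 NRF1 cores, of which the first 2 overlap as a match on each strand. Sdhb (chr4:140961021-140961320, plus strand), the iron-sulphur subunit of complex II, held 1 NRF1 core and 1 ETS core.
Ndufaf4: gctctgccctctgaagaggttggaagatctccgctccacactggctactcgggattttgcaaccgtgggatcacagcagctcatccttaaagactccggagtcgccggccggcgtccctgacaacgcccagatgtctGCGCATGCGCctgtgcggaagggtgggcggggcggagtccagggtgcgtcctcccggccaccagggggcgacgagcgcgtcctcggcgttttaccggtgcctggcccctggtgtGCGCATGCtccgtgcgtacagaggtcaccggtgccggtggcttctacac
Sdhb: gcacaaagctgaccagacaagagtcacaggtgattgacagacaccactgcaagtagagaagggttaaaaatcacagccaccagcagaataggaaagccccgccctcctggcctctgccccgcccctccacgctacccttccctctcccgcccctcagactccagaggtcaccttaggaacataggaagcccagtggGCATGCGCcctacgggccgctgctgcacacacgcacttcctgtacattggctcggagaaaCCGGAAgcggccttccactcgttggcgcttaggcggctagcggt

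Promoters were found for 78 member symbols, as 83 promoter entries among 32851 in all. The NRF1 core was in 14.5% of member promoters and 2.71% of all promoters. The ETS core was in 37.3% of member promoters and 14.9% of all. The E-box (7.23% of member promoters and 16.3% of all) and the TATA box (10.8% and 13.6%) were not more frequent in members. Members with an NRF1 core were highest in colonocyte-like cells of both libraries in 8 of 12 cases, and members without one in 37 of 63. A match is a run of letters in this window and not a site of binding.

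Nuclear respiratory chain transcripts, summed over the cells of a class, were most abundant in colonocyte-like cells and least in enteroendocrine-like cells, in the same order in both libraries. Cells were grouped by clustering without the members and named from markers of each class. Values are summed UMIs of the 97 nuclear members as a percent of the UMIs of all nuclear genes. Colonocyte-like cells had 7.486% in the GFP library (1577 cells) and 6.774% in the whole epithelium library (2519 cells). Stem/TA-like cells had 5.974% in the GFP library (973 cells) and 5.630% in the whole epithelium library (1423 cells). Goblet-like cells had 5.218% in the GFP library (1290 cells) and 4.908% in the whole epithelium library (1421 cells). Enteroendocrine-like cells had 4.453% in the GFP library (110 cells) and 4.620% in the whole epithelium library (329 cells). Colonocyte-like cells thus exceeded stem/TA-like cells by a log2 ratio of 0.33 in the GFP library and 0.27 in the whole epithelium library. Under 12 alternative settings it lay between 0.12 and 0.37 in the GFP library. In the whole epithelium library it lay between 0.06 (equal weight per cell, in place of summed UMIs) and 0.34. The places of goblet-like and enteroendocrine-like cells in the whole epithelium library were less settled. They changed when clusters were made coarser (resolution 0.5), the median cell had 5.258% in enteroendocrine-like and 4.915% in goblet-like cells, and the enteroendocrine-like cluster c24 (5.564%) lay above every goblet-like cluster of that library (4.589% to 5.437%).

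Different clusters hold the classes in the 2 libraries. Colonocyte-like cells were c3, c13 and c17 in the GFP library and c5, c6, c9 and c14 in the whole epithelium library. Of these, c5 (766 cells) was led by the bile acid carrier gene Fabp6. The Fabp6-led cluster of the GFP library, c11 (495 cells), fell below the marker score limit and stayed unnamed, so the class differs in make-up between the libraries. Goblet-like cells were mainly c2 and c15 in the GFP library and c10, c16, c20 and c21 in the whole epithelium library, and stem/TA-like cells were mainly c8 and c18 against c4 and c7. The cycling list named c8, c18 and c4, while the stem list named c7 (mean log2 fold 0.64, 3 markers raised). The part of this make-up in the stem/TA-like values was not tested. Enteroendocrine-like cells were c22 and c23 in the GFP library and c22, c23 and c24 in the whole epithelium library. One colonocyte-like cluster stood apart: c9, with 627 cells of the whole epithelium library and a median of 5823 UMIs, had 3.651% nuclear member UMIs, 17.68% mitochondrial UMIs and 35009.1 CPM of the nuclear RNA Malat1, where the other 6 had between 6081.7 and 14981.0 CPM of Malat1. The other 3 clusters of the class in the whole epithelium library lay between 6.894% and 7.262%, and the 3 of the GFP library between 7.350% and 7.593%. Without c9 the colonocyte-like value of the whole epithelium library was 7.053%.

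**Figure D1:**
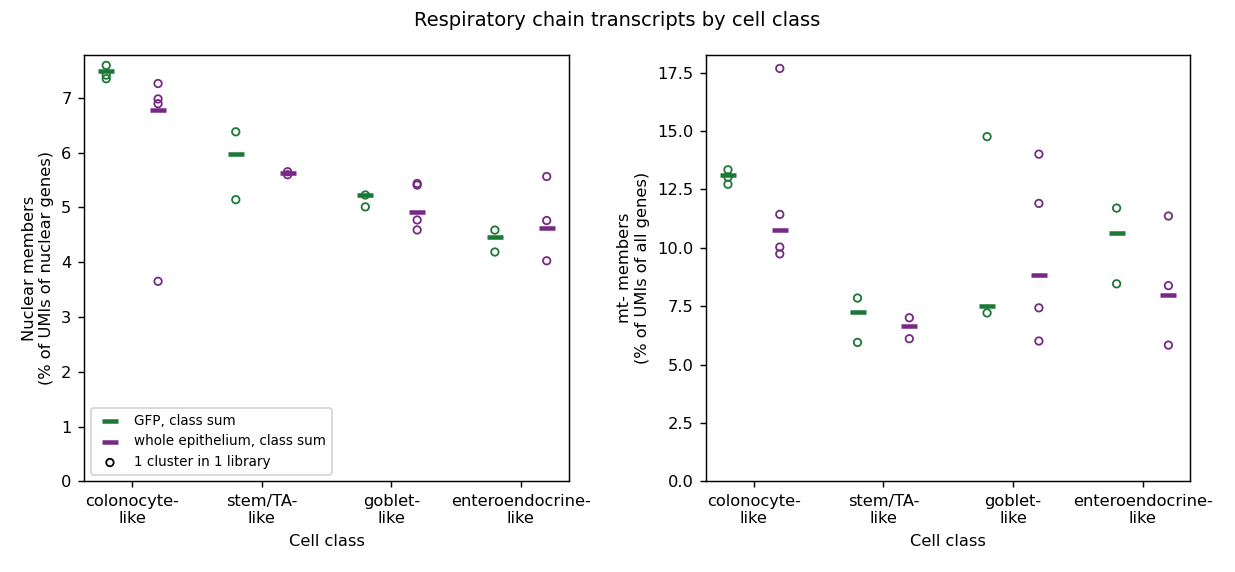
Summed level of the nuclear members (left, percent of the UMIs of nuclear genes) and of the mt- members (right, percent of the UMIs of all genes) in 4 cell classes; bars are class sums in the GFP library (green) and the whole epithelium library (purple), and open circles are single clusters. Class sums of nuclear members fall in the order colonocyte-like, stem/TA-like, goblet-like, enteroendocrine-like in both libraries, and the 1 colonocyte-like circle near 3.651% is cluster c9.

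Of the 90 members with at least 200 UMIs, 56 had their highest level in colonocyte-like cells in both libraries, against 16.9% of all 11990 nuclear genes so tested. Another 23 were highest in stem/TA-like cells in both libraries (23.5% of all genes), 2 in enteroendocrine-like cells (26.4%) and 0 in goblet-like cells (7.77%). Set directly against stem/TA-like cells, 56 of 90 members were higher in colonocyte-like cells in both libraries, where 30.5% of all genes were. The median log2 ratio of members was 0.14 in the GFP library and 0.11 in the whole epithelium library, and the median of all nuclear genes was -0.50 in the GFP library and -0.25 in the whole epithelium library. Against goblet-like cells, 74 of 90 members were higher in colonocyte-like cells in both libraries (30.1% of all genes). The excess over stem/TA-like cells was widest in complex IV and smallest in complex I among the subunits, and the assembly factors of complex I went the other way.

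**Figure D2:**
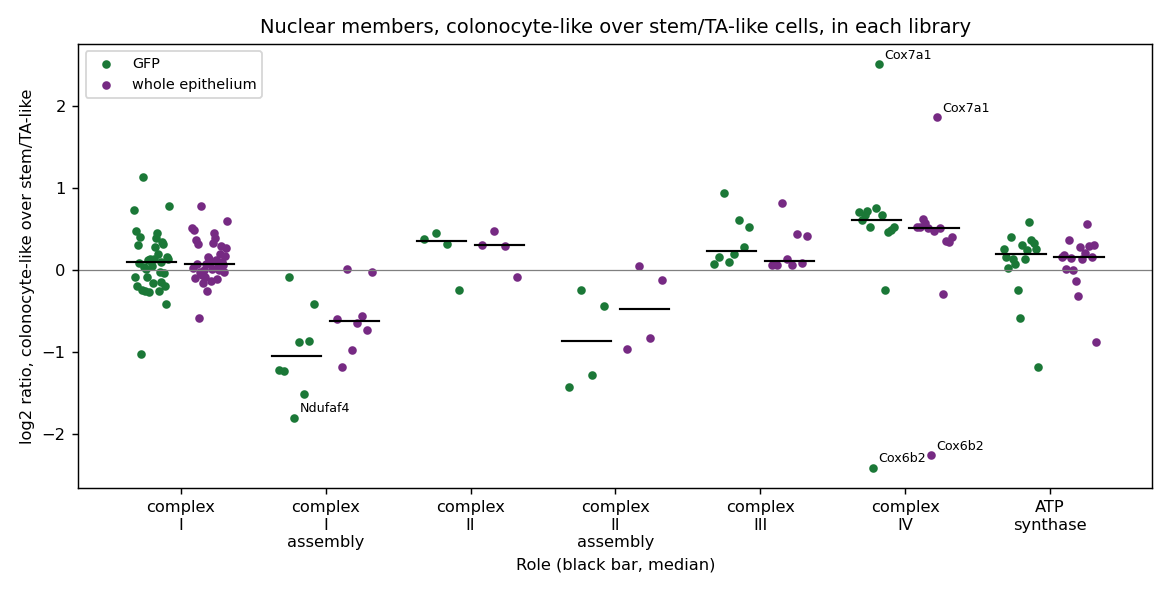
Log2 ratio of colonocyte-like over stem/TA-like cells for each nuclear member with at least 200 UMIs, by role, in the GFP library (green, left) and the whole epithelium library (purple, right); black bars are medians. Complex IV subunits lie highest (medians 0.61 and 0.51) and complex I assembly factors lowest (-1.05 and -0.62).

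Complex I, the entry point for NADH, was as a group only slightly higher in colonocyte-like than stem/TA-like cells, but most nuclear genes were lower there. Of 37 subunits, 22 were higher in colonocyte-like cells in both libraries, where 30.5% of all nuclear genes were. The median log2 ratio was 0.10 in the GFP library and 0.07 in the whole epithelium library, beside -0.50 and -0.25 for all nuclear genes. The accessory subunit Ndufa6, named after its values were seen, was at 999.4 CPM in colonocyte-like and 455.1 CPM in stem/TA-like cells of the GFP library. The whole epithelium library had Ndufa6 at 887.9 CPM in colonocyte-like and 517.6 CPM in stem/TA-like cells, so colonocyte-like cells were higher in both (log2 ratios 1.13 and 0.78). Ndufv3, an accessory subunit of the NADH-oxidising arm, was also higher in colonocyte-like cells, by 0.78 in the GFP library and 0.60 in the whole epithelium library on the log2 scale. Ndufa4, grouped here by its symbol and since found to be a subunit of cytochrome oxidase, was lower in colonocyte-like cells. It stood at 360.6 CPM in colonocyte-like and 733.3 CPM in stem/TA-like cells of the GFP library (log2 ratio -1.02). Its levels in the whole epithelium library were 571.9 CPM in colonocyte-like and 861.7 CPM in stem/TA-like cells (-0.59). The hypoxia-induced paralogue Ndufa4l2 had 17 UMIs in the GFP library and 5 UMIs in the whole epithelium library, too few to place.

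Assembly factors help build a complex and are not part of the finished enzyme. None of the 8 complex I assembly factors was higher in colonocyte-like than stem/TA-like cells in both libraries, where 30.5% of all nuclear genes were. Their median log2 ratio was -1.05 in the GFP library and -0.62 in the whole epithelium library, beside -0.50 and -0.25 for all nuclear genes. Ndufaf4 (ENSMUSG00000028261, chromosome 4, 24898083 to 24905001, plus strand), whose promoter above holds 3 NRF1 cores, was at 33.45 CPM in colonocyte-like cells, 80.04 CPM in goblet-like cells, 63.50 CPM in enteroendocrine-like cells and 116.3 CPM in stem/TA-like cells of the GFP library. Cells of the whole epithelium library had Ndufaf4 at 42.66 CPM in colonocyte-like, 59.09 CPM in goblet-like, 40.69 CPM in enteroendocrine-like and 84.19 CPM in stem/TA-like cells. Stem/TA-like cells were highest in both libraries, and the low value in colonocyte-like cells held in each of their clusters (29.50 to 45.14 CPM in the GFP library and 13.68 to 50.11 CPM in the whole epithelium library). Ndufaf2 was lower in colonocyte-like than stem/TA-like cells by log2 ratios of -1.23 in the GFP library and -1.18 in the whole epithelium library. Ndufaf5, which modifies the core subunit Ndufs7, followed with -0.88 in the GFP library and -0.65 in the whole epithelium library. Nearest to equal were Ndufaf8, at -0.42 in the GFP library and -0.03 in the whole epithelium library, and Ndufaf3, at -0.08 and 0.01 in the same order.

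In complex II the iron-sulphur subunit Sdhb (ENSMUSG00000009863, chromosome 4, 140961203 to 140979193, plus strand) was at 451.3 CPM in colonocyte-like and 330.4 CPM in stem/TA-like cells of the GFP library. The whole epithelium library had Sdhb at 451.3 CPM in colonocyte-like and 325.5 CPM in stem/TA-like cells, and goblet-like cells lay lower still, at 234.5 CPM in the GFP library and 240.2 CPM in the whole epithelium library. The 2 libraries thus gave nearly the same level of Sdhb in each of these classes. The flavoprotein Sdha (log2 ratios 0.38 in the GFP library and 0.31 in the whole epithelium library) and the membrane anchor Sdhc (0.32 and 0.29) were likewise higher in colonocyte-like cells, while the other anchor, Sdhd, had log2 ratios of -0.24 in the GFP library and -0.08 in the whole epithelium library. Sdhaf1, a factor that delivers iron-sulphur clusters to Sdhb, had the opposite course to its client. It was at 17.13 CPM in colonocyte-like and 46.27 CPM in stem/TA-like cells of the GFP library, and at 28.38 CPM in colonocyte-like and 55.15 CPM in stem/TA-like cells of the whole epithelium library (log2 ratios -1.43 and -0.96).

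All 8 members of complex III, which hands electrons to cytochrome c, were higher in colonocyte-like than stem/TA-like cells in both libraries (30.5% of all nuclear genes). Uqcrb (ENSMUSG00000021520, chromosome 13, 66900617 to 66905378, minus strand), a small subunit of the complex, was the widest of them. It was at 1942.0 CPM in colonocyte-like and 1011.5 CPM in stem/TA-like cells of the GFP library (log2 ratio 0.94), and at 1626.6 CPM in colonocyte-like and 919.8 CPM in stem/TA-like cells of the whole epithelium library (0.82). The Rieske iron-sulphur protein Uqcrfs1 was at 724.7 CPM in colonocyte-like and 473.2 CPM in stem/TA-like cells of the GFP library. Its levels in the whole epithelium library were 569.6 CPM in colonocyte-like and 421.0 CPM in stem/TA-like cells. The other members had log2 ratios from 0.07 to 0.52 in the GFP library and from 0.06 to 0.42 in the whole epithelium library.

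Complex IV had the largest excess in colonocyte-like cells, with 11 of 13 members higher than in stem/TA-like cells in both libraries (30.5% of all nuclear genes). Its median log2 ratios were 0.61 in the GFP library and 0.51 in the whole epithelium library. Cox5a (ENSMUSG00000000088, chromosome 9, 57521274 to 57532426, plus strand), subunit 5A of the oxidase, fell stepwise over the classes. In the GFP library it was at 3076.7 CPM in colonocyte-like, 2015.5 CPM in stem/TA-like, 1598.8 CPM in goblet-like and 1291.6 CPM in enteroendocrine-like cells. Levels in the whole epithelium library were 2187.6, 1514.3, 1146.5 and 1104.9 CPM in the same order of classes, lower in each. The subunits Cox4i1, Cox5b, Cox6a1, Cox6b1, Cox6c, Cox7a2, Cox7b, Cox7c and Cox8a had log2 ratios of colonocyte-like over stem/TA-like cells from 0.46 to 0.75 in the GFP library and from 0.34 to 0.62 in the whole epithelium library. The 2 members that went the other way were Cox6b2 and Cox7a2l, where Cox7a2l is a factor that joins complexes III and IV into supercomplexes (log2 ratios -0.24 in the GFP library and -0.29 in the whole epithelium library).

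Several complex IV subunits exist in a broad form and a tissue-restricted form, and 2 restricted forms had the widest ratios of colonocyte-like over stem/TA-like cells, 1 in each direction. Cox7a1 (ENSMUSG00000074218, chromosome 7, 30184144 to 30186078, plus strand) was at 244.0 CPM (238.2 to 249.8) in colonocyte-like cells and 42.74 CPM (40.31 to 45.29) in stem/TA-like cells of the GFP library. The whole epithelium library had Cox7a1 at 225.9 CPM (221.5 to 230.3) in colonocyte-like cells and 62.31 CPM (59.90 to 64.80) in stem/TA-like cells, so the log2 ratios were 2.51 and 1.86. Goblet-like cells had 54.17 CPM in the GFP library and 83.25 CPM in the whole epithelium library, and enteroendocrine-like cells had 86.59 CPM and 112.6 CPM in the same order. Its colonocyte-like clusters ran from 196.4 to 335.5 CPM in the GFP library and from 99.55 to 261.8 CPM in the whole epithelium library, with c9 lowest. Cox7a1 took 10.03% of the summed UMIs of Cox7a1, Cox7a2 and the supercomplex factor Cox7a2l in colonocyte-like cells of the GFP library. In stem/TA-like cells of that library its share was 2.655%, where 3′ counting gives 1 UMI per molecule whatever its length. In the whole epithelium library these shares were 10.87% in colonocyte-like and 4.106% in stem/TA-like cells. Both isoforms thus rose in colonocyte-like cells, and Cox7a1 rose more than Cox7a2 (log2 ratios 0.67 in the GFP library and 0.51 in the whole epithelium library).

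Cox6b2 (ENSMUSG00000051811, chromosome 7, 4751792 to 4753094, minus strand), the testis form of subunit 6B, had the opposite pattern at a far lower level. In the GFP library it was at 0.4602 CPM (0.245 to 0.787; 13 UMIs) in colonocyte-like and 2.451 CPM (1.896 to 3.118; 66 UMIs) in stem/TA-like cells. In the whole epithelium library it was at 2.310 CPM (1.889 to 2.796; 105 UMIs) in colonocyte-like and 11.09 CPM (10.08 to 12.17; 446 UMIs) in stem/TA-like cells. Stem/TA-like cells were highest in both libraries, and within the whole epithelium library 371 of these 446 UMIs lay in c4, while the other main cluster of the class, c7, had 4.634 CPM. In colonocyte-like cells of the whole epithelium library Cox6b2 was highest in c9 (8.050 CPM) and between 1.611 and 1.979 CPM in the other 3 clusters. Its broad paralogue Cox6b1 was higher in colonocyte-like cells (log2 ratios 0.52 in the GFP library and 0.51 in the whole epithelium library).

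The muscle form Cox8b was found almost wholly in goblet-like cells, which held 8 of its 10 UMIs in the GFP library and 93 of its 105 UMIs in the whole epithelium library. In the whole epithelium library, 68 of the UMIs were in 1 cluster, c20, at 12.29 CPM (9.543 to 15.58), and no cell held more than 4. Colonocyte-like cells had 0 UMIs in the GFP library, which allows up to 3 UMIs, and 2 UMIs in the whole epithelium library. Cox8a, by contrast, was highest in colonocyte-like cells, at 3413.5 CPM in the GFP library and 2921.8 CPM in the whole epithelium library. The muscle form Cox6a2 had 3 UMIs in the GFP library and 44 UMIs in the whole epithelium library. Of these 44, 28 lay in c19, the T/NK-like cluster, and 19 in a single cell. Cox4i2, the lung form of subunit 4, had 24 UMIs in the GFP library and 20 UMIs in the whole epithelium library, spread over as many cells.

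**Figure D3:**
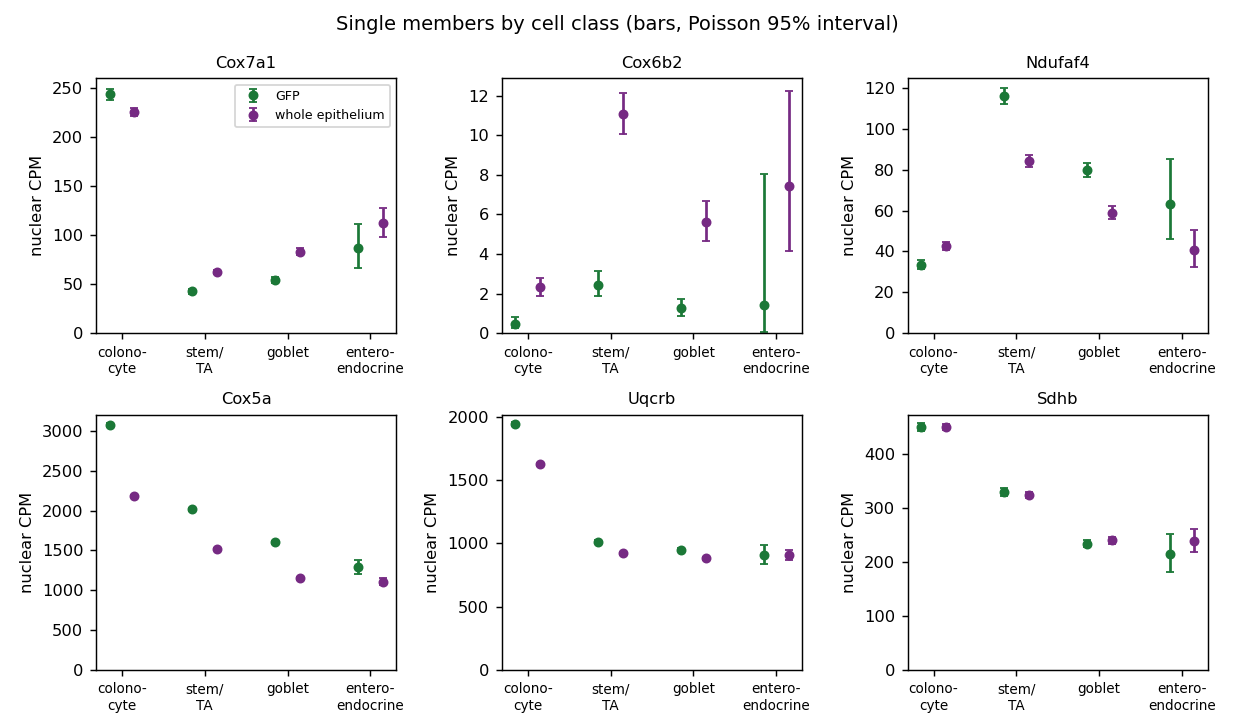
Level of 6 nuclear members in 4 cell classes, in CPM of nuclear genes, for the GFP library (green, left) and the whole epithelium library (purple, right), with exact Poisson 95% intervals. Cox7a1 reaches 244.0 and 225.9 CPM in colonocyte-like cells, while Cox6b2 and Ndufaf4 peak in stem/TA-like cells.

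Of 16 ATP synthase members, 12 were higher in colonocyte-like than stem/TA-like cells in both libraries (30.5% of all nuclear genes). The median log2 ratios were 0.20 in the GFP library and 0.16 in the whole epithelium library. The 3 genes for subunit c, which encode the same mature protein of the rotor ring, split. Atp5g3 was at 1233.3 CPM in colonocyte-like and 993.9 CPM in stem/TA-like cells of the GFP library, and at 982.4 CPM in colonocyte-like and 810.4 CPM in stem/TA-like cells of the whole epithelium library. Atp5g2 ran the other way, at 575.6 CPM in colonocyte-like and 866.2 CPM in stem/TA-like cells of the GFP library, and at 674.4 CPM in colonocyte-like and 841.8 CPM in stem/TA-like cells of the whole epithelium library. Atp5g1 was slightly lower in colonocyte-like cells (log2 ratios -0.24 in the GFP library and -0.14 in the whole epithelium library). Atp5s, a coupling factor, was lowest in colonocyte-like cells, at 5.062 CPM in the GFP library and 6.358 CPM in the whole epithelium library, against 11.47 CPM and 11.66 CPM in stem/TA-like cells.

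The 13 mt- members were also most abundant in colonocyte-like cells, but the order of the other classes differed between the libraries and with the clustering. Summed, they took 13.12% of all UMIs in colonocyte-like cells of the GFP library and 10.77% in those of the whole epithelium library. Stem/TA-like cells were lowest, with 7.230% in the GFP library and 6.644% in the whole epithelium library. Goblet-like cells had 7.523% in the GFP library and 8.814% in the whole epithelium library, and enteroendocrine-like cells had 10.64% and 7.978% in the same order. The limit of 25% mitochondrial UMIs per cell acts on these members themselves. Without it the colonocyte-like value was 25.38% in the GFP library and 16.95% in the whole epithelium library. The stem/TA-like value was then 15.55% in the GFP library, above the 10.27% of goblet-like cells, and 6.185% in the whole epithelium library, below the 11.55% of goblet-like cells. Per UMI of nuclear members, mt- members had 2.016 UMIs in colonocyte-like cells, 1.305 UMIs in stem/TA-like cells, 1.559 UMIs in goblet-like cells and 2.674 UMIs in enteroendocrine-like cells of the GFP library. For the whole epithelium library these figures were 1.781, 1.264, 1.970 and 1.877 UMIs in the same order of classes.

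Within colonocyte-like cells, those with more mitochondrial UMIs had fewer nuclear member UMIs. Over cells thinned to 1000 nuclear UMIs, Spearman's rho was -0.33 in the GFP library (1577 cells) and -0.55 in the whole epithelium library (2510 cells, 9 left out as too shallow). In stem/TA-like cells rho was 0.03 in the GFP library and 0.05 in the whole epithelium library, in goblet-like cells -0.14 and 0.05, and in enteroendocrine-like cells 0.00 and 0.06 in the same order. Cells of a class share their library, and in colonocyte-like cells depth moved with both measures. Its rho with the mitochondrial share was -0.24 in the GFP library and -0.39 in the whole epithelium library, and with the nuclear member share 0.43 and 0.55 in the same order. The colonocyte-like cells of the whole epithelium library include c9 (627 cells), with 17.68% mitochondrial and 3.651% nuclear member UMIs. The part of c9 in the value of -0.55 was not tested.

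Between the libraries, over all kept cells, nuclear members were slightly higher in the GFP library, at 6.403% of nuclear UMIs, against 5.900% in the whole epithelium library (log2 ratio 0.12). Of the 94 members tested, 67 were higher in the GFP library, where 48.0% of 15210 nuclear genes were, and their median log2 ratio was 0.11 beside -0.02 for all genes. Few passed 1.5-fold: 2 members were at least that much higher (7.95% of all genes) and 4 lower (16.0%). Of the 6, only Cox6b2 and Ndufa3 rest on more than 200 UMIs. The others are Cox4i2 and Ndufa4l2, with 24 and 17 UMIs in the GFP library and 20 and 5 in the whole epithelium library, and Cox6a2 and Cox8b, described above. Complex III had 8 of 8 members higher in the GFP library (median log2 ratio 0.16) and complex I subunits 30 of 38 (0.12), while complex I assembly factors had 3 of 8 (-0.09) and complex II assembly factors 1 of 4 (-0.15).

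Cox5a showed the largest rise among members with at least 200 UMIs. It was at 2303.0 CPM (2293.5 to 2312.5) in the GFP library and 1679.6 CPM (1672.4 to 1686.7) in the whole epithelium library, a log2 ratio of 0.46. The ratio was of like size in colonocyte-like (0.49), stem/TA-like (0.41) and goblet-like cells (0.48), and 0.23 in enteroendocrine-like cells. Atp5g3 followed with a log2 ratio of 0.34, the complex III subunit Uqcrq with 0.33, Atp5g1 with 0.32 and Ndufaf4 with 0.29. The complex I subunits Ndufs5 and Ndufb9, the oxidase subunit Cox7b and the ATP synthase subunit Atp5j had log2 ratios from 0.24 to 0.26. In stem/TA-like cells Ndufaf4 was at 116.3 CPM in the GFP library and 84.19 CPM in the whole epithelium library. In colonocyte-like cells as named here it was at 33.45 CPM in the GFP library and 42.66 CPM in the whole epithelium library. That class holds the Fabp6-led c5 of the whole epithelium library but not the Fabp6-led c11 of the GFP library, where Ndufaf4 was higher (value further on). The part of this make-up in the Ndufaf4 values was not tested.

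Cox6b2 was the most reduced of the members with at least 200 UMIs, with a log2 ratio of -2.50 (-2.78 to -2.23). It was at 1.271 CPM (1.058 to 1.515, 125 UMIs) in the GFP library. In the whole epithelium library it was at 7.201 CPM (6.740 to 7.686, 907 UMIs). The ratio lay between -2.37 and -2.16 in the 4 classes, on 1 UMI of the GFP library in enteroendocrine-like cells. Ndufa3 (ENSMUSG00000035674, chromosome 7, 3617373 to 3620327, plus strand), an accessory subunit of complex I, was at 320.6 CPM (317.1 to 324.2) in the GFP library and 486.8 CPM (482.9 to 490.7) in the whole epithelium library, a log2 ratio of -0.60. It was lower in the GFP library in every class, with log2 ratios of -0.58 in colonocyte-like, -0.66 in stem/TA-like, -0.60 in goblet-like and -0.76 in enteroendocrine-like cells. Ndufa4 (-0.37) was reduced most in colonocyte-like cells (-0.67). Atp5k, subunit e of the ATP synthase, was at 840.0 CPM in the GFP library and 1056.7 CPM in the whole epithelium library (-0.33), and Ndufaf6, Ndufaf2, Sdhaf1, Ndufaf8, Atp5e and Cox7c had log2 ratios from -0.37 to -0.17.

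**Figure D4:**
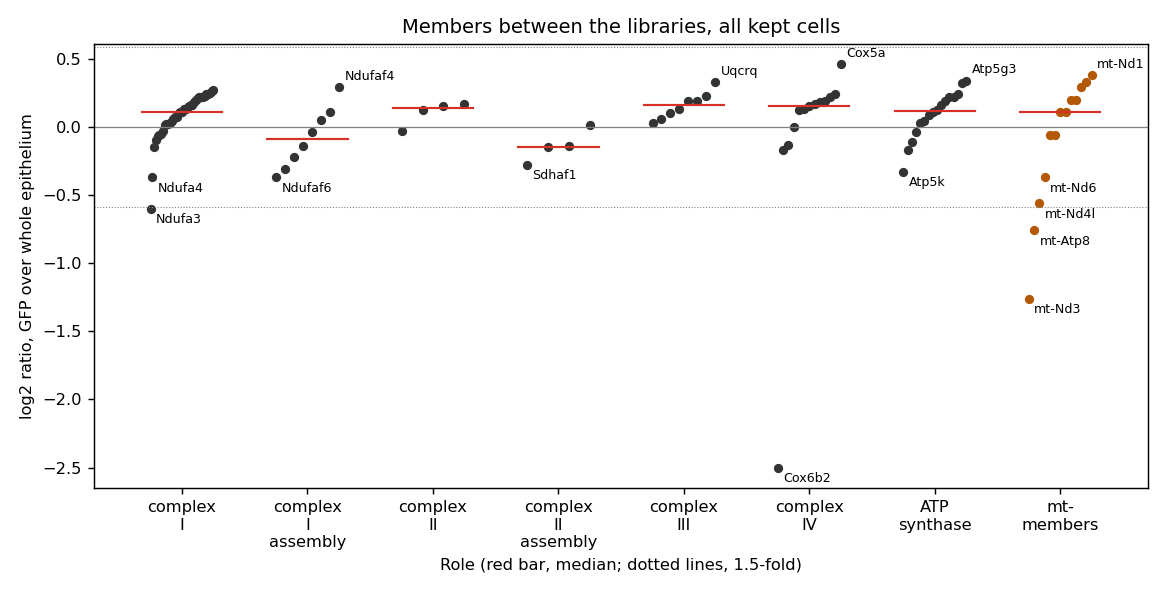
Log2 ratio of the GFP library over the whole epithelium library for each nuclear member with at least 200 UMIs and each mt- member, by role, over all kept cells; red bars are medians and dotted lines mark 1.5-fold. Most nuclear members lie just above 0, with Cox6b2 at -2.50, and the mt- members spread from -1.26 to 0.38.

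By class, the share of members higher in the GFP library was 60 of 90 in colonocyte-like cells (34.5% of all genes there), 66 of 90 in stem/TA-like cells (63.3%), 66 of 91 in goblet-like cells (49.3%) and 34 of 89 in enteroendocrine-like cells (52.9%). At least 1.5-fold higher were 0 members in colonocyte-like (7.90% of all genes), 0 in stem/TA-like (8.50%), 0 in goblet-like (6.96%) and 2 in enteroendocrine-like cells (13.8%), and at least 1.5-fold lower were 4 (18.5%), 2 (9.59%), 4 (11.6%) and 7 (13.4%) in the same order. In stem/TA-like cells the members were near the background. In colonocyte-like cells all 8 complex III members and 11 of 13 complex IV members were higher in the GFP library (median log2 ratios 0.21 and 0.22), beside a median of -0.15 over all nuclear genes. The 17 goblet cell markers summed to 3746.1 CPM in colonocyte-like cells of the GFP library and 886.1 CPM in those of the whole epithelium library (none at 0 in either, 16 higher), and the 5 deep crypt secretory markers to 1708.7 and 108.3 CPM in the same order (none at 0). Their part in the class values was not tested. The complex I and II assembly factors had medians of -0.31 and -0.34 in colonocyte-like cells, led by Ndufaf6 at 8.779 CPM in the GFP library and 17.18 CPM in the whole epithelium library. Cox7a1 was at 244.0 CPM in the GFP library and 225.9 CPM in the whole epithelium library in colonocyte-like cells. The first value leaves out the Fabp6-led c11, where Cox7a1 was lower, and the second takes in the Fabp6-led c5. The part of this make-up in the Cox7a1 values was not tested. Outside colonocyte-like cells Cox7a1 was lower in the GFP library, with log2 ratios of -0.54 in stem/TA-like, -0.62 in goblet-like and -0.38 (-0.81 to 0.04) in enteroendocrine-like cells.

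The mt- members did not move together between the libraries. Over all kept cells they summed to 9.421% of UMIs in the GFP library and 8.689% in the whole epithelium library (log2 ratio 0.12). This sum turned with the limit on mitochondrial UMIs: the log2 ratio was -0.10 with a limit of 10%, 0.31 with a limit of 50% and 0.57 without one. Single members differed far more than the sum. mt-Nd3 (ENSMUSG00000064360, mitochondrial genome, 9459 to 9806, plus strand), a core subunit of complex I, was at 6.317 UMIs per 10000 UMIs in the GFP library and 15.15 in the whole epithelium library, a log2 ratio of -1.26. mt-Atp8, a membrane subunit of the ATP synthase, was at 0.770 per 10000 UMIs in the GFP library and 1.299 in the whole epithelium library (-0.76). mt-Nd4l was at 1.820 per 10000 UMIs in the GFP library and 2.679 in the whole epithelium library (-0.56), and mt-Nd6 at 0.144 and 0.186 in the same order (-0.37). These 4, the lowest ratios, are the 4 shortest of the 13 genes, at 204 to 519 bases.

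The 9 longer mt- genes lay near 0 or above it. mt-Nd1 was at 58.03 per 10000 UMIs in the GFP library and 44.45 in the whole epithelium library (log2 ratio 0.38), and mt-Nd4 (0.33), mt-Nd2 (0.29), mt-Cytb (0.20) and mt-Atp6 (0.20) were likewise higher in the GFP library. The catalytic oxidase subunit mt-Co1 was near level, at 168.9 in the GFP library and 175.6 in the whole epithelium library (-0.06), as was mt-Nd5 (-0.06), although these are the longest genes. mt-Co2 and mt-Co3 had a log2 ratio of 0.11 each. With a limit of 10% mitochondrial UMIs, mt-Co2 (-0.17), mt-Co3 (-0.16) and mt-Cytb (-0.05) were lower in the GFP library, and without a limit mt-Co1 (0.30), mt-Nd5 (0.27) and mt-Nd6 (0.22) were higher, while mt-Nd3, mt-Atp8 and mt-Nd4l stayed lower. The reduction of mt-Nd3 held in all 4 classes, with log2 ratios of -0.95 in colonocyte-like, -1.51 in stem/TA-like, -1.54 in goblet-like and -0.86 in enteroendocrine-like cells. That of mt-Atp8 did too, between -1.18 and -0.46. mt-Nd6, the 1 member read from the minus strand, was lower in the GFP library in stem/TA-like (-0.47) and goblet-like cells (-1.23) but not in colonocyte-like cells (0.17, 0.02 to 0.32). mt-Atp8 overlaps mt-Atp6 and mt-Nd4l overlaps mt-Nd4 on the same strand, so the split of counts within these pairs is uncertain. mt-Nd6 overlaps only the end of mt-Nd5, which lies on the other strand. mt-Nd3 overlaps no other member. The part of overlap or gene length in these ratios was not tested.

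**Figure D5:**
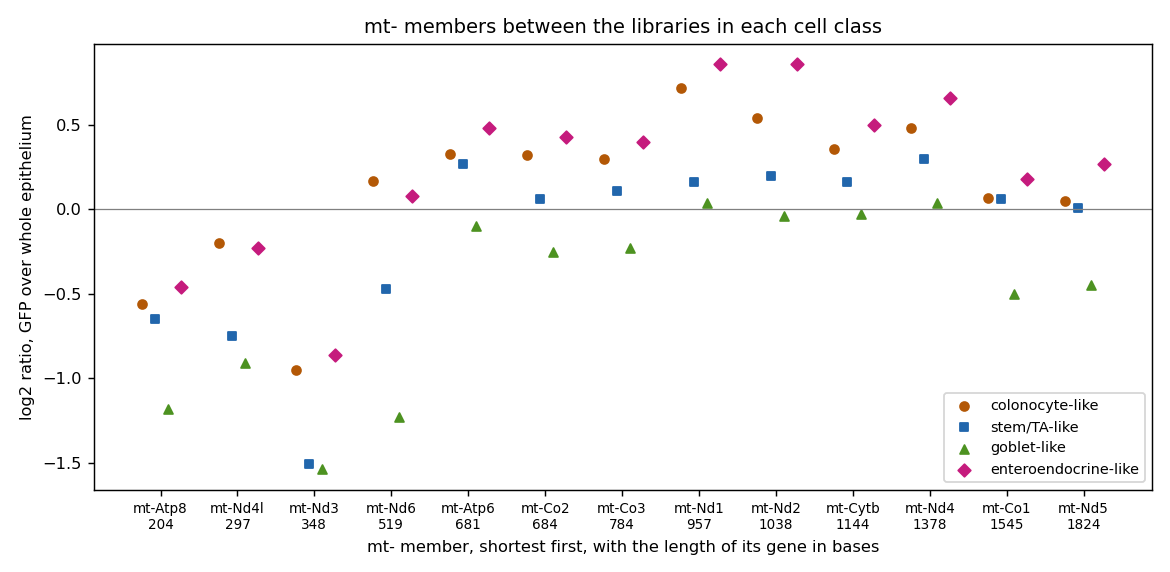
Log2 ratio of the GFP library over the whole epithelium library for the 13 mt- members in 4 cell classes, ordered by gene length in bases. mt-Nd3 lies between -1.54 and -0.86 in every class, and goblet-like cells (triangles) have the lowest ratio of the 4 classes for each member.

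Among nuclear members, the 3 with a longest transcript of up to 500 bases were also lower in the GFP library, with a median log2 ratio of -0.13, the same as the median of all 191 nuclear genes of that length. The median was 0.13 for 39 members of over 500 and up to 1000 bases, and 0.07, 0.13 and 0.14 in the longer ranges. Over all nuclear genes it was -0.02 in the range of over 500 and up to 1000 bases and 0.03 above 4000 bases. The mt- sum was lower in the GFP library in goblet-like cells (-0.23, but 0.16 with equal weight per cluster). It was higher in the other 3 classes (0.28 in colonocyte-like, 0.12 in stem/TA-like and 0.42 in enteroendocrine-like cells). Goblet-like clusters differed widely in this share, with 7.210% in c2 and 14.76% in the shallow c15 of the GFP library. In the whole epithelium library it was 7.428% in c10, 6.007% in c20, 14.01% in c16 and 11.90% in c21. The part of this make-up in the goblet-like sum was not tested. Of the 13 mt- members, 2 were higher in the GFP library in goblet-like cells, against 10, 9 and 10 in the other classes. The 13 are all the mt- genes counted, so there is no background share for them.

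Mitochondrial UMIs were a larger part of the barcodes of the GFP library before the limit was applied. Among barcodes with enough genes and UMIs, the median mitochondrial share was 31.13% in the GFP library and 13.99% in the whole epithelium library, and 57.48% and 34.72% of barcodes exceeded 25%. After the limit the medians were 8.248% and 8.269% in the same order. Nuclear members were lower in barcodes over the limit of 25% than in those under it. In the GFP library they took 6.207% of nuclear UMIs in barcodes of up to 10% mitochondrial UMIs, 6.759% over 10 up to 25%, 5.381% over 25 up to 50% and 5.522% over 50%. In the whole epithelium library the figures were 5.916%, 5.859%, 3.916% and 3.203%. Malat1, retained in the nucleus, climbed over the same ranges from 5243.1 to 36665.4 CPM in the GFP library and from 5976.5 to 88851.8 CPM in the whole epithelium library. Its part in the levels of the members was not tested.

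The pathways around the chain were counted in the same way over all kept cells, where 48.0% of all nuclear genes were higher in the GFP library, 7.95% at least 1.5-fold higher and 16.0% at least 1.5-fold lower. Of 17 enzymes of the TCA cycle and pyruvate dehydrogenase, which supply its electrons, 9 were higher in the GFP library (median log2 ratio 0.02), and 0 passed 1.5-fold in either direction. Of 10 electron carriers and adenine nucleotide transport genes 7 were higher (0.09), with cytochrome c (Cycs) at 1092.0 CPM in the GFP library and 969.6 CPM in the whole epithelium library. Proteins of the mitochondrial ribosome were balanced, with 37 of 78 higher (-0.01), but 10 of 78 were higher in colonocyte-like cells (-0.26), where 34.5% of all genes were. Among 13 genes of mitochondrial DNA expression 4 were higher (-0.07). The ends of this list were the transcription factor Tfam, at 46.08 CPM in the GFP library and 55.13 CPM in the whole epithelium library (log2 ratio -0.26), and the DNA polymerase Polg, at 24.94 and 19.41 CPM in the same order (0.36). Of 13 nuclear regulators 10 were higher (0.08), but the coactivator Ppargc1a was at 19.98 CPM in the GFP library and 38.03 CPM in the whole epithelium library (log2 ratio -0.93), and the fatty acid receptor Ppara at 9.134 and 15.91 CPM in the same order (-0.80). Among 15 genes of cytochrome oxidase assembly outside the members 6 were higher (-0.08), and Higd1a, induced by hypoxia, was at 1499.7 CPM in the GFP library and 910.6 CPM in the whole epithelium library (0.72). Of 14 glycolytic genes 11 were higher (0.14). By class, 11 of 14 were higher in colonocyte-like cells (0.30), where 34.5% of all genes were. In stem/TA-like cells 6 of 14 were higher (-0.02, 63.3% of all genes), and in goblet-like cells 5 of 14 (-0.08, 49.3%).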

How the data were processed

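Droplet 3′ single-cell libraries (10x Genomics v2 chemistry, per the labels' protocols) were made from mouse colon epithelium, 1 library per group. The deposited matrices hold raw counts, UMIs for each gene in each barcode. Cell Ranger 2.1.1 and build mm10 are named per the submitters' processing notes, and Cell Ranger 3.1.0 per the file headers. The settings of cell calling are not given in the sources used here. Each matrix was given to the sample whose barcode list has its number of columns.

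A barcode was kept if it had 500 or more genes, 1000 or more UMIs and no more than 25% mitochondrial UMIs. No doublet caller was run, and doublets were kept. Both libraries were clustered together without the members (scanpy 1.11.5, 2000 variable genes, 30 components, 15 neighbours, leidenalg 0.10.2, resolution 1.0), giving 29 clusters. In 24 of them over 95% of cells came from 1 library. A cluster was named by the marker list highest over the median cluster of its library, where the stem and cycling lists name stem/TA-like cells and the goblet and deep crypt secretory lists goblet-like cells (mean log2 fold of at least 0.5, at least 3 markers raised 2-fold, not led by markers of another class among its top 10 genes, and for shallow clusters a marker of the class among them), by a rule settled after the data were seen. This named 23 clusters, and a difference from the study may come from rebuilt names. Classes with at least 100 cells in each library were compared.

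Nuclear members are given as CPM, UMIs per 1000000 UMIs of genes outside the mitochondrial genome, and mt- members per 10000 UMIs of all genes. Log2 ratios are GFP over whole epithelium unless another pair is named, with exact conditional binomial 95% intervals, and levels carry exact Poisson intervals. A gene was called at 1.5-fold and counted from 20 UMIs in both libraries together. Named were all mt- members, the 10 nuclear members highest and the 10 lowest in log2 ratio (5 and 5 in each class) from 200 UMIs, the 10 widest across classes, the isoform sets and the ends of the pathway lists. One gene that this rule names is not reported here. Members and lists were chosen with earlier results of these data known. The ratio and its interval were tested on simulated counts. Alternatives changed the filters, the scaling (TMM of edgeR 4.0.16, median of ratios), the weighting and the clustering.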

Additional observations from a re-analysis of the deposited data

Results flagged for a closer look

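The nuclear members, summed, were higher in the GFP library in 3 classes, with log2 ratios of 0.14 in colonocyte-like, 0.09 in stem/TA-like and 0.09 in goblet-like cells, but not in enteroendocrine-like cells (-0.05, 110 cells of the GFP library and 329 of the whole epithelium library). The mt- members, summed, went the other way in goblet-like cells (-0.23, but 0.16 with equal weight per cluster), where the other classes had 0.28 in colonocyte-like, 0.12 in stem/TA-like and 0.42 in enteroendocrine-like cells. With 1 library per group, neither difference between classes was tested.

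The limit of 25% mitochondrial UMIs alone removed 7797 barcodes of the GFP library and 4128 of the whole epithelium library, which the class comparisons do not use. These barcodes had a median of 4470.0 UMIs in the GFP library and 4220.5 UMIs in the whole epithelium library.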

How the results depend on the processing

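The log2 ratio of the summed nuclear members over all kept cells (0.12) was 0.07 with a mitochondrial limit of 10%, 0.13 with 50% or none, 0.11 from 5000 UMIs per cell, 0.11 scaled to all genes, 0.13 with TMM, 0.14 with median of ratios and 0.19 with equal weight per cell. That of the mt- members (0.12) was -0.10 with a limit of 10%, 0.31 with 50%, 0.57 without one, 0.13 from 5000 UMIs and 0.01 with equal weight per cell. The number of members higher in the GFP library (67) lay between 58 and 68, and from 200 UMIs per gene 2 in place of 4 were at least 1.5-fold lower. The 20 nuclear members the naming rule picks for this comparison kept their direction under all 7 alternatives recomputed for each.

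By class, the number of nuclear members higher in the GFP library in enteroendocrine-like cells (34) was 11 at resolution 0.5, 18 with the libraries clustered separately and 52 without a mitochondrial limit, where the sum was also higher (0.06). The number of mt- members higher in goblet-like cells (2) was 4 at resolution 2.0, 0 with separate clustering, 5 with members kept in the clustering, 0 with a limit of 50% and 4 without one, and the goblet-like mt- sum was 0.16 with equal weight per cluster. The causes were not tested. Of the colonocyte-like over stem/TA-like ratios, those of 10 members and both sums were recomputed and kept their direction: Cox7a1 lay between 1.63 and 2.61 in the GFP library and 1.31 and 2.65 in the whole epithelium library, Cox6b2 between -2.63 and -1.28 and between -2.96 and -1.11. When clusters with a median depth below 0.5 of that of their library were left out, enteroendocrine-like cells fell under 100 cells and gave no value. The alternatives without any mitochondrial limit by class, without those clusters, with equal weight per cluster, without the 100 genes with most UMIs and with the Fabp6-led cluster c11 were chosen after seeing the data. No paired analysis was possible because each group is 1 library. Depth limits Cox6a2, Cox8b, Cox4i2 and Ndufa4l2, with at most 105 UMIs in a library.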

Other observations

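Respiratory chain transcripts were also counted in cells too few for the class comparisons. Tuft-like cells, the chemosensory cells, had 5.754% nuclear member UMIs in the GFP library (43 cells) and 5.562% in the whole epithelium library (36 cells), and mitochondrial UMIs took 10.59% and 10.52% in the same order. T/NK-like cells, named from lymphocyte markers, had 6.056% in the GFP library (60 cells, median 1938.5 UMIs) and 3.580% in the whole epithelium library (253 cells, median 4214.0 UMIs). Their T and NK markers summed to 4209.8 CPM in the GFP library and 16682.6 CPM in the whole epithelium library. Goblet markers summed to 20159.8 and 2151.5 CPM and colonocyte markers to 17180.0 and 7050.5 CPM in the same order. The part of epithelial transcripts in the T/NK-like values was not tested. The 28 fibroblast-like cells of the whole epithelium library had 4.896%.

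Among unnamed clusters, c11, with 495 cells of the GFP library led by the bile acid carrier gene Fabp6, had 7.622% nuclear member UMIs, beside 7.486% in colonocyte-like cells of that library, but 114.5 CPM of Cox7a1 and 103.9 CPM of Ndufaf4, beside 244.0 CPM and 33.45 CPM in colonocyte-like cells of that library. The shallow cluster c1 (1199 cells of the GFP library, median 1758.0 UMIs) had 6.672%, and c0 (1249 cells of the whole epithelium library, led by haemoglobin genes, median 1907.0 UMIs) had 6.397%. These values have no test.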
